A study of Mus musculus with 4 samples.

Results

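Small noncoding RNA genes of the nucleus were examined for binding of DHX9, a helicase known to open paired RNA, in neural progenitor cells of the mouse. The genes described are the autosomal genes annotated as tRNA, snRNA, snoRNA, guide_RNA (guide RNAs of Cajal bodies), miRNA or Y_RNA whose span held the midpoint of at least 1 deposited peak. There were 158 such genes, holding 159 peaks, among 3783 annotated autosomal genes of these 6 kinds (4.18%). They stand beside 4785 annotated genes of any kind with a peak. The members were chosen by the peaks themselves, so every count of genes with a peak is a description of the called list, and none was tested.

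The libraries came from neural progenitor cells derived from WT26, a male mouse embryonic stem cell line of strain C57BL/6x129sV. The cells had been differentiated through embryoid bodies and kept with EGF and FGF2, which all groups shared. In 2 libraries (DHX9-Rb, replicates A and B) the RNA was pulled down with a rabbit antibody to DHX9 from Abcam, and in 2 libraries (IgG-Rb, replicates A and B) with rabbit IgG from Santa Cruz as the background control. RNA bound to the protein was fixed by ultraviolet light and sequenced with its strand (FLASH, a crosslinking and pull-down assay). The 4 libraries yielded 1 list of 43106 peaks, so no value per library, no sequencing depth and no replicate error can be given. All cells were of 1 line. Expression was not measured, so weak binding and low expression cannot be told apart in a gene without a called peak. Of the neural progenitor markers, 5 of 10 held a peak (Slc1a3 122 peaks, Ptprz1 64, Notch1 21, Fabp7 4 and Vim 1), while Sox1, Sox2, Pax6, Nes and Hes5 held none. None of 4 pluripotency markers held a peak, and of 4 neuronal markers only Map2 did, with 46 peaks. Among autosomal protein-coding genes, 19.4% held a peak.

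Small nuclear RNAs are the RNA cores of the splicing machinery and of related particles that process histone mRNA or control transcription. Most small nucleolar RNAs (snoRNAs) are cut out of introns of longer host genes and guide the chemical modification of ribosomal RNA. The C/D class guides methylation and the H/ACA class pseudouridylation. Transfer RNA genes are transcribed by RNA polymerase III from promoter elements inside the gene (the A and B boxes), and the precursor carries a leader and a trailer that are removed to make the mature tRNA. Y RNAs are polymerase III transcripts held by the Ro60 protein.

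Sequences of a few members show what the peaks covered. Those of tRNA and snRNA members are from RefSeq promoter windows (assembly GRCm38.p6, mm10) and could be read only where a member overlaps the window of a protein-coding or long noncoding gene. Just 2 members, Rnu7 and n-TRtcg5, lie wholly inside such a window. Rnu7, the U7 RNA of histone mRNA processing (chr6:124741225-124741286, minus strand), is shown whole because its peak covered every base of it. Capitals mark part of the site where a ring of Sm and related proteins binds U7. An arginine tRNA gene, n-TRtcg5, is shown with the bases after it (chr7:79466419-79466511, plus strand), and an asparagine tRNA gene, n-TNgtt7, from its middle to beyond its end (chr10:80249199-80249263, plus strand). In these tRNA sequences capitals mark the bases under the peak.
Rnu7: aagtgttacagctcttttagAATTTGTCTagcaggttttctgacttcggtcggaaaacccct
n-TRtcg5: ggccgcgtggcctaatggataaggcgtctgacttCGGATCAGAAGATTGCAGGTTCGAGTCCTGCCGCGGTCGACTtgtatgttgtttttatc
n-TNgtt7: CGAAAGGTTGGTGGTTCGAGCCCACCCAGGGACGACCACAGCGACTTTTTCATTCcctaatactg

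The n-TRtcg5 gene is the first 73 bases shown, and its 42-base peak ran from base 35 to base 76, across the core of the B box (GGTTCGA, from base 52) and 3 bases past the gene. The run of T that follows a tRNA gene and stops RNA polymerase III (TTTT, first at base 86) lay beyond that peak. In n-TNgtt7 the first 34 bases shown belong to the gene. Its peak went on for 21 bases past the gene and took in both the B box core (from base 13) and the TTTT run (first at base 46). These matches were read on the peak's strand and are letters, not shown sites. Over 32851 promoter windows searched on both strands, GGTTCGA was found in 0.910%, TTTT in 78.0% and AATTTGTCT, the capitals in Rnu7, in 0.286%. The letters TGATGA of the C box, TATAAA of the TATA box and the A box pattern were also searched. None of them matched in these 3 stretches, and they were found in 12.4%, 13.6% and 0.454% of the windows. The n-TNgtt7 stretch leaves out the first part of the gene, and variants of the A box pattern were not searched. The search therefore cannot show that either tRNA gene lacks an A box.

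The miRNA members are shown by the mature arm the peak met, with the seed (bases 2 to 8) in capitals. They include the pair of arms among the members that share a seed, GUCAGGC, and the arms under the 2 shortest miRNA peaks. All 9 miRNA members were found in the RefSeq miRNA table, with 14 mature arms.
mmu-miR-214-3p: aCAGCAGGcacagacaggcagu
mmu-miR-6240: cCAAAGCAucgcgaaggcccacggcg
mmu-miR-344c-5p: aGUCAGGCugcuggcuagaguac
mmu-miR-344g-5p: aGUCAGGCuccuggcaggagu

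By kind of gene, snoRNA genes made up most of the members. A peak midpoint lay in 91 of 1286 snoRNA genes (7.08%), 34 of 391 tRNA genes (8.7%), 19 of 931 snRNA genes (2.04%), 9 of 1136 miRNA genes (0.792%), 3 of 37 guide RNA genes (8.11%) and both Y RNA genes (100%). The corresponding share was 3.3% of autosomal long noncoding RNA genes and 0.484% of pseudogenes. These shares are set by the rule that chose the members.

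The kinds differed in how often the peak also lay in a longer annotated gene. It did for 117 of the 158 (74.1%). For snoRNA members this was 89 of 91 (97.8%), for guide RNAs 3 of 3 and for miRNAs 7 of 9. For snRNA members it was 8 of 19 (42.1%), for tRNA members 10 of 34 (29.4%) and for Y RNAs 0 of 2. Among all annotated genes of the kind, 61.0% of snoRNA, 73.0% of guide RNA, 79.5% of miRNA, 43.6% of snRNA and 35.3% of tRNA genes lay wholly inside a longer gene. The shares of tRNA, snRNA and miRNA members were thus near those of their kinds, and that of snoRNA members was higher, with no test made.

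**Figure D1:**
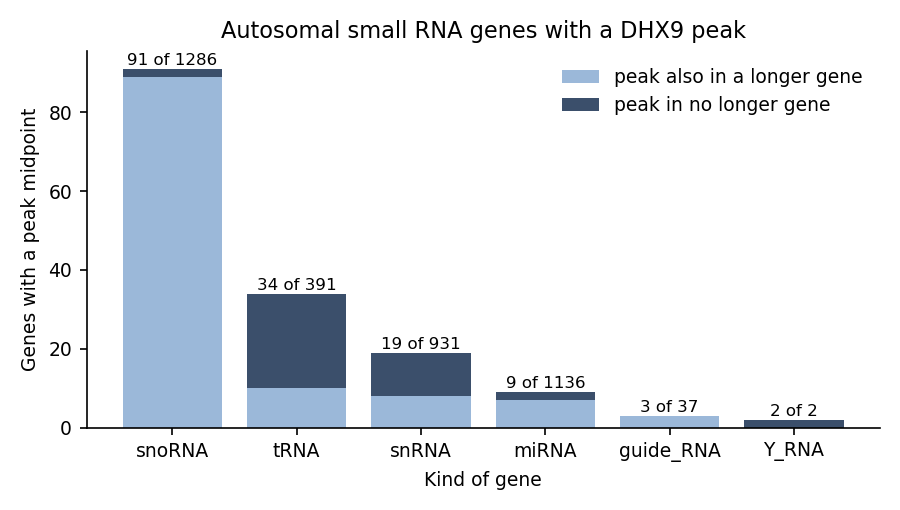
Number of autosomal small RNA genes whose span held a peak midpoint (vertical axis) for each kind of gene (horizontal axis), with the number of annotated genes above each bar. Light parts are members whose peak also lay in a longer gene and dark parts those in no longer gene. Of 91 snoRNA members 89 are light, and of 34 tRNA members 24 are dark.

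Peaks on these genes were short. Their median length was 101 bases (quartiles 76.5 and 140.5, range 20 to 394, n = 159), against 153 bases (quartiles 122 and 202, range 16 to 981) over the other 42947 peaks. The medians by kind were 76 bases for tRNA, 101 for snoRNA, 123 for snRNA and 136 for miRNA members. Peaks of under 40 bases were rare in the list, with 56 in all, and 12 of them were on members. That is 7.55% of member peaks and 0.102% of other peaks. Of the 12, 9 were on tRNA genes, 2 on miRNA genes and 1 on a snoRNA gene, Gm23301 within Rpl17. No test of the difference in length was made, because 1 list gives no replicates.

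**Figure D2:**
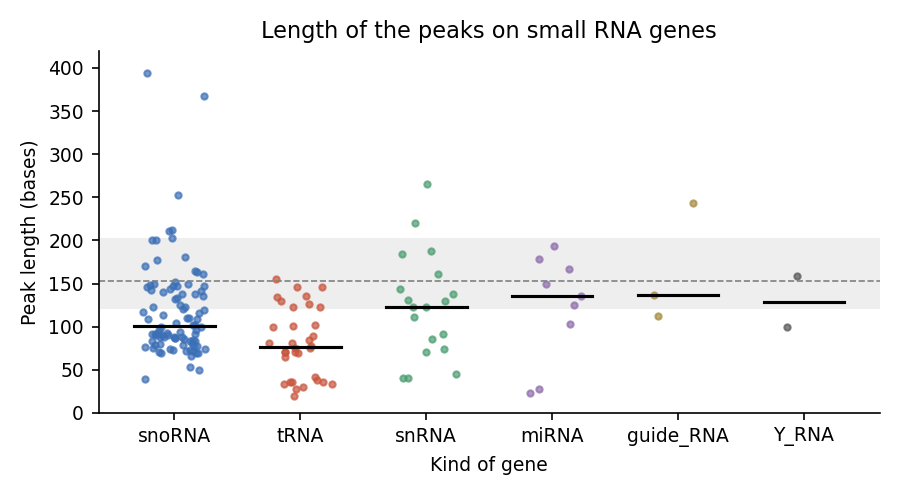
Length in bases of each peak on a small RNA gene (points) by kind of gene, with the median as a black bar. The dashed line and grey band are the median (153 bases) and quartiles (122 and 202) of all other peaks, and the tRNA points have the lowest median, 76 bases.

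The tRNA peaks sat at the 3' end of the gene. The tables give no strand for tRNA genes, so 5' and 3' are those of the peak's own strand. In that orientation the midpoint lay past the centre of the gene in 34 of 34 peaks, at 52.8 to 100% of its length (median 80.1%). All 34 peaks ended beyond the gene, by 3 to 76 bases with a median of 17.5 (quartiles 14 and 32). For 22 of the 34 this overhang was 10 to 25 bases. At the other end, 10 peaks began before the gene, by 5 to 20 bases, and the median peak began 21.5 bases into it. The bases past the annotated gene are not in the mature tRNA, whose CCA end is added after cutting. The peaks were read as called intervals, and no read within them was seen. A midpoint inside the gene also limits how far a member's peak can reach past it. In n-TGacc1, touched by a peak with its midpoint downstream, the overhang was 130 bases. Counting any overlap, 44 of 46 tRNA peaks ended beyond the gene, and 44 had the midpoint past its centre.

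By where they began, the tRNA member peaks were of 3 sorts. The 10 that began before the gene were 99 to 155 bases long and covered it whole. Another 15 began 5 to 37 bases into the gene and were 42 to 123 bases long. The last 9 began 51 to 89 bases in, were 20 to 38 bases long and ended 3 to 17 bases past the gene. The midpoint rule sets part of this, since a peak that begins late must be short to be counted. Peaks that began 54 and 55 bases into n-THgtg3 and n-THgtg5 were 62 and 52 bases long, with the midpoint outside. None of the member peaks began between 37 and 51 bases in. The gap holds for members only: a 64-base peak with its midpoint outside n-TMcat13 began 44 bases into that gene. The median share of a tRNA gene covered by its peak was 70.5%.

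**Figure D3:**
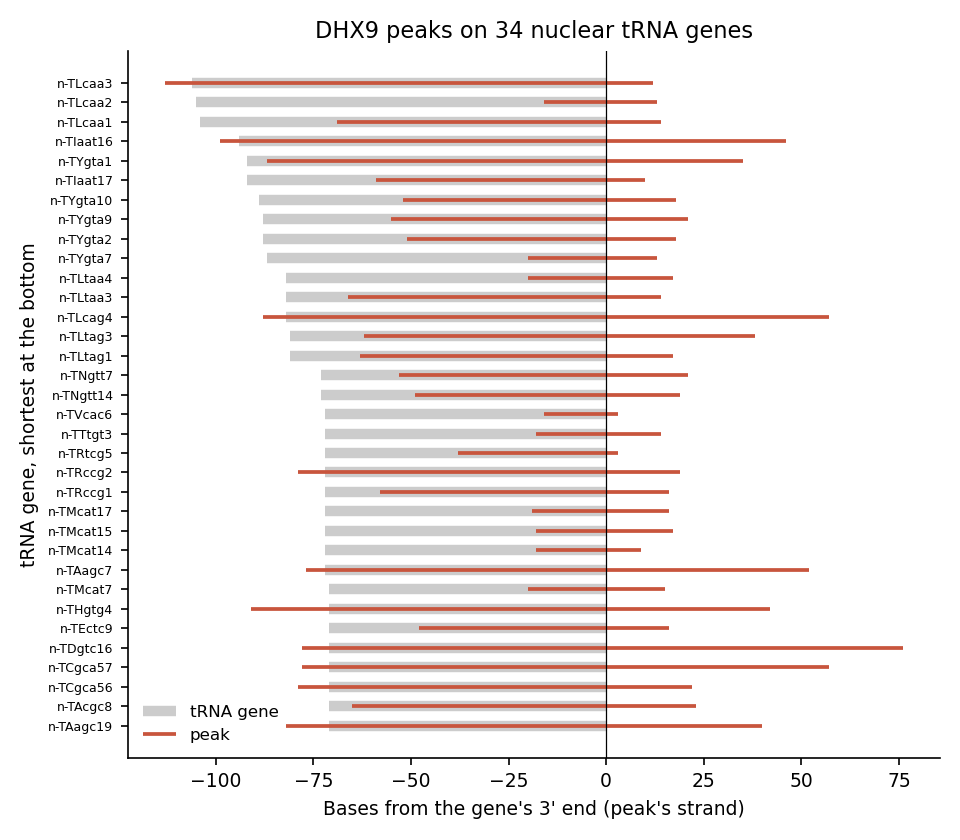
Each tRNA gene with a peak is a row, with the gene in grey and the peak in red, aligned at the gene's 3' end on the peak's strand (horizontal axis in bases). All 34 red bars cross the line at 0, by 3 to 76 bases, while only 10 extend to the left of the grey bar.

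The shortest tRNA peaks were on genes of several amino acids. The valine gene n-TVcac6 had a 20-base peak that began 56 bases into its 73 bases and ended 3 past it. In the methionine genes n-TMcat7 and n-TMcat17 the peaks were 36 bases long and began 51 and 53 bases in. The threonine gene n-TTtgt3 had 33 bases from 54, the tyrosine gene n-TYgta7 34 bases from 67, and the leucine genes n-TLtaa4 and n-TLcaa2 38 bases from 62 and 30 bases from 89. Of these, the n-TLcaa2 peak covered the smallest share of its gene, 16.0%. All of them met the final part of the gene and left its first 51 bases or more uncovered. The remaining peaks of this sort were on n-TMcat14 and n-TMcat15, methionine genes within the noncoding gene Gm32298, with 28 and 36 bases.

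The longest tRNA peaks covered the gene and its surroundings. The aspartate gene n-TDgtc16 had a 155-base peak that ended 76 bases past its 72 bases. The isoleucine gene n-TIaat16 and the leucine gene n-TLcag4 each had 146 bases, ending 46 and 57 bases past the gene. Both cysteine genes with a peak were of this sort, n-TCgca57 with 136 bases and n-TCgca56 with 102. So were the alanine genes n-TAagc7 and n-TAagc19, with 130 and 123 bases, and the arginine gene n-TRccg2, with 99. Even these long peaks reached further past the 3' end of the gene than before its 5' end: n-TAagc7 had 52 bases after and 5 before, n-TCgca57 57 and 7, and n-TRccg2 19 and 7.

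Between these extremes lay peaks of 65 to 123 bases on other genes in no longer gene. The glutamate gene n-TEctc9 had 65 bases, n-TRccg1 (arginine) 75, and n-TLtag1, n-TLcaa1 and n-TLtag3 (leucine) 81, 84 and 101. The isoleucine gene n-TIaat17 had 70 bases. Of the tyrosine genes, n-TYgta2 had 70, n-TYgta10 71 and n-TYgta1 123. The overhang past the 3' end in these 9 peaks was 10 to 38 bases, smallest in n-TIaat17 and largest in n-TLtag3.

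Long tRNA genes made up a large part of the members. Of 17 tRNA genes of 88 bases or more, 10 held a peak (58.8%), against 5 of 48 genes of 81 to 87 bases (10.4%) and 19 of 326 shorter ones (5.83%). These 10 were 5 of the 10 tyrosine genes, 3 of the 4 leucine genes with the anticodon letters caa, and 2 isoleucine genes, n-TIaat16 and n-TIaat17. Tyrosine and leucine-caa tRNA genes are known to carry an intron, which is absent from the mature tRNA. Counted as amino acids, tyrosine had 5 of 10 genes with a peak, leucine 8 of 25 and methionine 4 of 16. Alanine had 3 of 21, arginine 3 of 23, asparagine 2 of 13, isoleucine 2 of 16 and cysteine 2 of 56. Histidine, aspartate, glutamate, threonine and valine had 1 each. No peak midpoint lay in a gene of glycine (28), lysine (25), serine (22), proline (15), glutamine (15), tryptophan (8) or phenylalanine (7). That does not mean no peak met them. The glycine gene n-TGacc1 and the serine gene n-TScga1 were overlapped by peaks of 201 and 152 bases with the midpoint downstream. Those peaks began 3 and 18 bases into the gene. The length classes were set after these values were seen. Copies of a tRNA gene can be nearly identical, and how reads that map to several were placed is not given in the sources used here, so the gene a tRNA peak is assigned to is uncertain.

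Of the 10 tRNA members in a longer gene, 9 lay in a host with no peak elsewhere. Where the tables give the host's strand, 4 peaks were on it and 4 on the opposite strand. The opposite ones were n-TRtcg5 in Polg, n-THgtg4 in Gm39918, n-TYgta9 in Gm35795 and n-TNgtt14 in 2310047D07Rik. The other 4 were in Ndufs7, B230208H11Rik, Gm39827 and 4930555B11Rik.

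Peaks on snoRNA genes lay around the middle of the gene. Their midpoints lay at a median of 48.3% of its length (quartiles 40.5 and 58.3), and 41 of 92 were past the centre. Members were chosen by a midpoint inside the gene, which sets part of this position and of the coverage below. The median peak began 13 bases before the gene and ended 7 bases after it. The gene was covered whole by 68 of the 92, and in 24 both ends of the peak lay within 10 bases of the gene's ends. In the same count none of the 34 tRNA peaks did, and 5 of the 19 snRNA peaks. The ribosomal protein gene Rpl13a shows the match: its snoRNA genes Snord35a (89 bases), Snord34 (66), Snord33 (82) and Snord32a (81) had peaks of 94, 76, 123 and 100 bases. All 4 of these peaks began before the gene, by 3, 8, 8 and 12 bases.

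**Figure D4:**
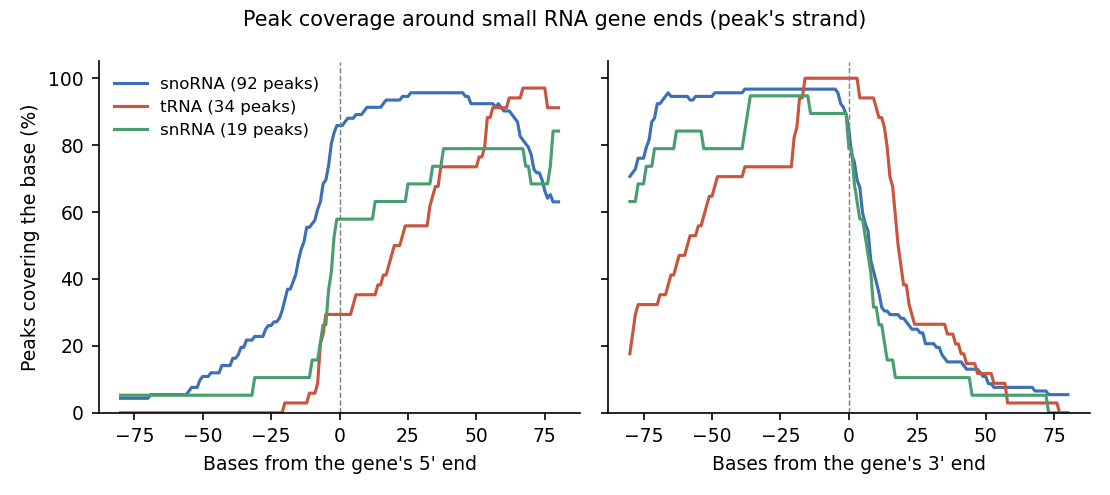
Share of peaks (vertical axis, percent) that cover each base around the 5' end (left) and 3' end (right) of the gene, on the peak's strand, for snoRNA, tRNA and snRNA members. Coverage of tRNA genes (34 peaks) rises along the gene and continues past the 3' end, whereas that of snoRNA genes (92 peaks) is high from end to end.

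C/D snoRNAs were the larger group by name. A peak lay in 42 of 92 genes named Snord (45.7%), 6 of 36 named Snora, the H/ACA class (16.7%), 30 of 274 named LOC and 12 of 874 named Gm. By length, 38 of 75 snoRNA genes of up to 70 bases held a peak (50.7%), 34 of 321 of 71 to 100 bases (10.6%) and 19 of 890 longer ones (2.13%). The 6 Snora genes were Snora7a, Snora15, Snora23, Snora62, Snora68 and Snora78. Snora23, in the importin gene Ipo7, differed from most: a 50-base peak covered only the last 27.2% of its 184 bases. By contrast Snora62, in the ribosomal protein gene Rpsa, was covered whole by a 150-base peak. The only member with more than 1 peak was the snoRNA gene Gm25835 of 144 bases, in the translation factor gene Eif4a1. A peak of 88 bases began 21 bases before it and a peak of 69 bases ended 2 past it, so that together they covered 93.1% of it.

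Of the members listed as snoRNA, only 2 had no longer gene around them, Snord118 and Snord13. These are the genes of U8 and U13, C/D snoRNAs that are transcribed from their own promoters. U8 acts in the cutting of ribosomal RNA precursors. The Snord118 peak (73 bases) covered the first 51.8% of the gene, from 2 bases before it. The Snord13 peak (138 bases) began 10 bases into its 98 bases and ended 50 past it, covering 89.8% of the gene. The Snord118 peak thus met only the first part of its gene, and the Snord13 peak all but its start.

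Several host genes with more than 1 bound snoRNA had no peak elsewhere. Members lay in 59 host genes of snoRNAs, of which 33 had no peak outside the small RNA genes and 26 had at least 1. Among all autosomal genes, 19.4% of protein-coding and 3.3% of long noncoding genes held any peak. Most genes thus held no peak at all, and having no further peak is not particular to these hosts. The 26 of 59 hosts with a further peak are a larger share than either of these. Any peak and a further peak are unlike measures, and no test was made. The noncoding genes Gas5 and Snhg1, whose introns hold snoRNAs, each had a peak in 8 of 8 of their snoRNA genes. Snhg1 had no other peak, and Gas5 had 3. In each of the ribosomal protein genes Rpl13a and Rpl7a, 4 of 4 snoRNA genes had a peak and no other peak lay in the host. The same held for 3 of 3 in the noncoding genes 2410006H16Rik and Zfas1. In Nop56, which encodes a core protein of C/D snoRNPs, 3 of 5 snoRNA genes had a peak, with none elsewhere in the gene.

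**Figure D5:**
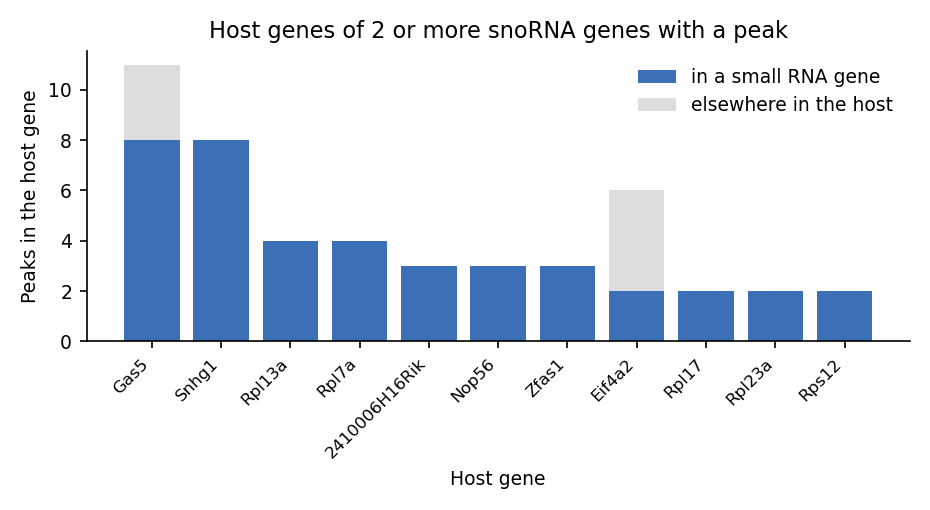
Number of peaks (vertical axis) in 11 host genes that hold 2 or more snoRNA members, split into peaks in small RNA genes (blue) and elsewhere in the host (grey). Grey parts appear in Gas5 (3 peaks) and Eif4a2 (4 peaks).

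Within a host the peaks differed in width. In Snhg1 the 8 snoRNA genes were 65 to 126 bases long. LOC115489086 and LOC115489087, of 69 and 67 bases, had peaks of 70 and 69 bases, and Snord22, of 126 bases, a peak of 132 bases. LOC115489084, of 75 bases, had a 394-base peak, the longest of any member, which began 166 bases before it and ended 153 after. In Gas5 the narrowest peaks were the 83-base peaks of LOC115487640 and LOC115487644, and the widest was the 253-base peak of LOC115487645. So a single host held peaks that matched the snoRNA and peaks that spread well into its flanks.

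By type of host, 34 snoRNA members lay in 22 ribosomal protein genes, of which 6 had a further peak. Another 29 lay in 11 noncoding genes (3 with a further peak), 20 in 18 other protein-coding genes (11), 6 in 5 translation factor genes (4) and 5 in 3 genes of snoRNP or nucleolar proteins (2). Members in overlapping hosts count under each. Many further peaks lay in the stress granule gene G3bp1 (34) and in Nop58, the partner of Nop56 (25). Snhg14, the long imprinted host in the Prader-Willi region, was the other extreme: 1 of its 206 annotated snoRNA genes, Snord64, held a peak midpoint.

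Small RNA genes held peaks both in hosts with further peaks and in hosts without. Of snoRNA genes lying wholly inside a host with a peak elsewhere, 34 of 397 held a peak (8.56%), against 55 of 388 in hosts without such a peak (14.2%). This order rests on 1 host, Snhg14: without the genes inside it, the first share is 33 of 191 (17.3%), above the other. Over all 6 kinds the shares were 46 of 876 (5.25%; 45 of 669, or 6.73%, without the genes inside Snhg14) and 70 of 1383 (5.06%), and 42 of 1524 (2.76%) for genes in no longer gene. For miRNA genes they were 5 of 306 and 1 of 597. Genes in the same host are not independent.

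Most peaks of nested members lay on the host's strand. The promoter table gave the host's strand for 93 member peaks, of which 84 were on it and 7 opposite. The other 2, in Snora78 (Snhg9 and Rps2) and Mir214 (Dnm3os and Dnm3), lay in hosts of both strands. Of the 70 snoRNA peaks among them, 69 were on the host's strand. Beside the 4 tRNA peaks named above, those opposite were of Gm22265 in Hhat, Gm24265 in Sirt4 and Mir6236 in Gm39429. Judged by the strand of most of the host's other peaks or by the gene's own strand, 49 of 50 member peaks were on that strand, with 35 of 35 for snoRNA and 9 of 9 for miRNA members. The exception in that count was Gm24265, a predicted snRNA gene.

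Among snRNA members, the largest group had the length of U5, the RNA that holds the exons in place during splicing. Of 9 snRNA genes of 116 bases, which is the length of Rnu5g, 7 held a peak. LOC115487699, Gm22265 and Gm25099 were covered whole by peaks of 131, 123 and 130 bases. Gm23143 and Gm23287 were covered over their last 78.4% and 67.2%, by 92 and 86 bases. Rnu5g and Gm25313, which lie near each other in the noncoding gene Gm40527, each had a 40-base peak at the 3' end, covering 32.8% and 33.6%. All 7 peaks ended 1 to 13 bases past the gene. The table does not name the family of the predicted genes, and how reads of near-identical copies were placed is not given. Of the 354 snRNA genes of 107 bases, the most frequent length, only Gm22260 held a midpoint. It lies in the adhesion receptor gene Adgrb3, which has 306 further peaks, and its midpoint was on the edge of the gene.

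Named genes of the minor spliceosome and of other particles were among the members. Rnu11, the U11 RNA that recognises the 5' splice site of minor introns, was covered over 99.1% of its 108 bases by a 138-base peak that began 31 bases before it. Rnu12, the U12 RNA that pairs with the branch site, had only a 45-base peak on its last 24.7%, ending 8 bases past its 150 bases. Rnu3a, the U3 RNA of ribosomal RNA processing, is counted here by its listing as snRNA and lay in no longer gene. It was matched end to end by a 220-base peak over 212 bases, from 3 bases before to 5 after. Rn7sk, which holds an elongation factor inactive, had a 266-base peak over the last 76.5% of its 332 bases. Rnu7 had 70 bases over all of its 62.

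Of the other snRNA genes in no longer gene, Gm22513 (164 bases) was covered over its first 67.1% and Gm22973 (191 bases) over its last 93.2%. Both are predicted genes, from groups of 31 and 13 genes of the same length of which only these held a midpoint. Snord73b, listed as snRNA in the table, lies beside the snoRNA gene Snord73a in the ribosomal protein gene Rps3a1, and its 74-base peak matched its 71 bases at both ends. Its listing, not its name, puts it in this group. Gm25982, in the noncoding gene Gm16008, and Gm24784, in Chl1, were covered whole by peaks of 161 and 144 bases, and Gm24265 over 75.9% by 123 bases.

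Both annotated Y RNA genes held a peak, and they lie close together on chromosome 6 with peaks on opposite strands. Rny3 (101 bases) was covered whole by a 159-base plus-strand peak that ended 53 bases past it. Rny1 (111 bases) was covered over 81.1% by a 99-base minus-strand peak that began 21 bases in and ended 9 past it. Both had midpoints past the centre, at 74.0% and 63.6%, and a peak end beyond the gene, as all 34 tRNA peaks did. Neither trait is particular to these 2 kinds. A peak end beyond the gene was seen in 71 of 92 snoRNA and 15 of 19 snRNA peaks. The midpoint was past the centre in 41 and 13 of them.

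The 3 guide RNA members lay in protein-coding hosts. Scarna10, in the condensin gene Ncapd2, was covered whole by a 112-base peak. Gm22009, in the importin gene Kpna4, was covered over its last 68.8% by 243 bases, and Scarna6, in the autophagy gene Atg16l1, over its first 30.6% by 137 bases.

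Narrow peaks on an annotated mature arm and wide peaks over the hairpin both occurred among the miRNA members. The arms are as annotated, and whether the RNA under a peak is a miRNA was not tested. How reads that map to several places were placed is not given. In Mir214 the peak had 28 bases and covered all 22 bases of miR-214-3p, the arm shown above, and none of miR-214-5p. In Mir6240 a 23-base peak covered 22 of the 26 bases of the annotated mature RNA. A second peak on the same strand, 280 bases long with its midpoint upstream of the hairpin, began 168 bases before the Mir6240 hairpin, ended 5 bases before the hairpin's end and so also spanned the mature RNA. The peaks of Mir3061 (167 bases), Mir5125 (194), Mir7647 (136), Mir344c (149) and Mir344g (178) covered the whole hairpin, so they do not tell the arms apart. Gm24148, in the nucleolin gene Ncl, and Mir6236 were covered over 70.1% and 74.0% by peaks of 103 and 125 bases. These took in the whole annotated mature RNA. Mir344c and Mir344g share the seed GUCAGGC in their 5p arms. Their hosts, A230057D06Rik and A330076H08Rik, carried 75 and 1 further peaks. Mir3061 and Mir6240 lay in no longer gene.

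The midpoint rule put some genes just inside and some just outside. Nearest the edge inside were Gm22260, Gm24784 (an snRNA gene in the adhesion gene Chl1) and n-TMcat15, all with the midpoint 0 bases from an edge. Closest outside were n-TCgca54, n-TVcac4 and n-TMcat11, each missed by 1 base. Within 10 bases of an edge there were 18 members inside and 9 genes outside. A further 12 tRNA genes were touched by a peak whose midpoint lay outside, 10 of them with the midpoint downstream of the gene and 2, n-TIaat13 and n-TEctc4, upstream.

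The protein-coding genes of the particles that hold these RNAs were also inspected, against a share of 18.9% of protein-coding genes on all chromosomes with a peak. Of 13 genes for snoRNP and Cajal body RNP proteins, 4 held one: Nop58 (26 peaks), Nop56 (3), Dkc1 (1), the pseudouridine synthase, and Fbl (1), the methyltransferase. Of 33 genes for snRNP proteins and their assembly, 11 did, led by Snrnp70 of the U1 particle (13 peaks), Prpf3 (4), and Eftud2 and Phax (3 each). Of 17 genes for tRNA transcription and maturation, 4 did, led by the polymerase III factor gene Brf1 (10), with Gtf3c2 (2), Polr3a (1) and Trmt1 (1). The trailer-cutting enzyme gene Elac2 held none. Of the Y RNA binders, Ro60 held 3 peaks and Ssb, which binds polymerase III 3' ends, none. Of 10 genes for miRNA processing, 5 did, with Dgcr8, the hairpin-binding partner of Drosha, at 12 and Ago2, Dicer1 and Drosha at 2 each. The median gene of the snoRNP, snRNP and tRNA lists held 0 peaks. Of the peaks in Nop56, all 3 were those on its snoRNA genes.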

How the data were processed

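The authors deposited 1 peak list for the 4 libraries, made with PEAKachu per the file itself. Its deposited columns hold other values than read counts: the start, end and strand of each peak, with no score. Bowtie2 2.2.6 and the builds hg19 and mm10 are named per the submitters' processing notes. The peak caller's version and settings and the treatment of multiply mapping reads are not given in the sources used here. How reads of near-identical copies were placed can therefore shift peaks between the copies. Groups were taken from the sample titles, and 0 columns were left unmapped.

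Peaks were set against gene spans of RefSeq GRCm38.p6 (mm10) on 19 autosomes. A peak belonged to each gene that held its midpoint, and a host was any longer gene that held the same midpoint. The table has no strand for tRNA, snRNA and snoRNA genes, so positions follow the peak's strand. Host strands came from the RefSeq promoter table and miRNA strands from the miRNA table. The planned motif shares of members were not computed, since the promoter table holds windows of protein-coding and long noncoding genes only. Python 3.11.15 with pandas 2.3.3, numpy 2.4.6, scipy 1.17.1 and matplotlib 3.10.9 was used, and the assignment was tested on simulated data. Intervals used to compare settings were 95% exact binomial intervals for shares and order-statistic intervals for medians. With 1 list, depth is unknown and no test was made.

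The members and lists were chosen with earlier results of these data known. Named genes were the tRNA, snRNA, Y RNA, guide RNA, miRNA and snoRNA members in no longer gene, members with 2 or more peaks, up to 8 host genes with the most snoRNA members, the 3 nearest each side of the midpoint rule, and the top 3 genes of each list. Other genes named were chosen after their values were seen. A few genes taken by this rule are left out of text and figures. Alternatives are given in the closing section.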

Additional observations from a re-analysis of the deposited data

Results flagged for a closer look

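Outside the autosomal genes, 8 mitochondrial tRNA genes held the midpoints of 10 peaks, a signal that none of the comparisons above used. TrnA (67 and 47 bases) and TrnP (198 and 219 bases) each held a peak on both strands, and the other 6 genes, TrnV, TrnL1, TrnQ, TrnC, TrnS2 and TrnE, held 1 each. The control libraries cannot be shown beside these, because the list gives no value per library.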

How the results depend on the processing

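Of 89 alternative values, 65 stayed within the main interval or within 1.5 times the main count and 24 moved. Counting any overlap of at least 1 base gave a median peak length of 116 bases, a median covered share of 98.3%, 70 hosts with a further peak and 10.2% of genes in such hosts with a peak. Asking that peaks cover 50% of the gene gave a median length of 123 bases and 7.31% in such hosts. With only peaks of at least the median length, 25 members were left, with a median length of 188 bases, 100% on the known strand, 12 hosts with a further peak, 1.93% of genes in such hosts, and 0% of tRNA genes of 88 bases or more. With the X and the mitochondrial genome, 86.4% of tRNA midpoints lay past the centre, in place of 100%. Counted by family, 3 of 4 families of long tRNA genes held a peak (75%), within the interval of the 58.8% by gene. With protein-coding hosts only, 50% of members lay in a host. Without genes named Gm or LOC there were 102 members, 65.7% of them in a host, 100% on the known strand, and 8.06% in hosts with a further peak. Using the peak's 5' end in place of its midpoint, an alternative chosen after seeing the data, gave 70 members, 54.3% in a host, a median length of 82.5 bases, a covered share of 57.6%, 22 hosts with a further peak and 2.44% in such hosts. The 3 tRNA values, on the midpoint, the 3' end and the long genes, and the count without the genes inside Snhg14 were also added after seeing the data. The cause of these shifts was not tested, beyond the smaller or larger sets of peaks and genes that each setting defines. No paired analysis was possible because the 4 libraries gave 1 list, and for the same reason no replicate could be left out.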

Other observations

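Far more miRNA hairpins were touched by a peak than held its midpoint, and most of these peaks lay upstream. Beside the 9 members, 40 miRNA genes were overlapped by a peak with its midpoint outside. On the gene's own strand there were 39 such pairs of peak and hairpin, 29 with the midpoint upstream and 10 downstream. For 27 of the upstream pairs the table gives a 5p arm, the mature RNA nearest the hairpin's 5' side, whose first base is where the Drosha enzyme cuts. The peak's last base lay a median of 13 bases after the first base of that arm, with quartiles 0 and 25.5. In 11 of the 27 it fell within 1 base of it: Mirlet7a-1, Mirlet7c-1, Mirlet7c-2, Mirlet7d, Mirlet7g, Mir20a, Mir22, Mir23a, Mir34a, Mir125b-2 and Mir298. In these hairpins the upstream peak covered the flank before the mature RNA and stopped at its start. A further peak on the same strand began 53 bases into the hairpin in Mirlet7c-1, 79 in Mir20a and 73 in Mir298. Some of these arms are shown from RefSeq (GRCm38.p6) with the seed in capitals, and those of let-7 share the seed GAGGUAG.
mmu-let-7c-5p: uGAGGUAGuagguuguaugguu
mmu-let-7d-5p: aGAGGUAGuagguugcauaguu
mmu-let-7g-5p: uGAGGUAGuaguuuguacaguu
mmu-miR-22-5p: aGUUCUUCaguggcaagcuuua
mmu-miR-34a-5p: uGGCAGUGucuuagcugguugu
mmu-miR-125b-5p: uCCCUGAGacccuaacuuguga

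Among structured RNAs outside the 6 kinds, Rmrp, the RNA of the RNase MRP enzyme, had a 284-base peak over its 275 bases, from 3 bases before it to 6 after. Rpph1, the RNA of RNase P, which trims tRNA leaders, had a 189-base peak that began 145 bases into its 325 bases and ended 9 past it. None of 3 scRNA genes and not the telomerase RNA gene (0 of 1) held a midpoint. On the X, the snoRNA genes Snord61 and Gm25520 and the snRNA gene Gm26065 held 1 peak each.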
